A study of Mus musculus with 28 samples.

Results

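Synaptotagmins are membrane proteins of vesicles and of the plasma membrane that carry a pair of C2 domains, modules that in many family members bind calcium and phospholipids. In neurons they link the calcium signal of an action potential to SNARE-driven fusion, each member with its own calcium affinity and its own vesicles, and some members bind no calcium at all. The 10 genes described here are Syt1, Syt3, Syt4, Syt5, Syt6, Syt7, Syt9, Syt10, Syt11 and Syt12, chosen by gene name from the 22919 genes of the tables, and each of the 10 had an adjusted p-value in all 7 comparison tables.

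Newly made RNA was measured by Bru-seq, which marks new transcripts with bromouridine for pull-down and sequencing. CD1 mouse forebrain cultures (cortex and hippocampus of embryonic day 18, holding neurons, astrocytes and oligodendrocyte precursors) were infected at day 14 in vitro with lentivirus. It carried a control hairpin (shCtrl) or a hairpin against Rai1, a gene for a chromatin protein (shRai1). At day 17 they were given water as vehicle, 1 µM tetrodotoxin (TTX), which blocks sodium channels and silences firing, or 20 µM bicuculline (BIC), which blocks GABA-A receptors and raises network activity, for 4 h, with bromouridine in the last 20 min. No group lacked virus, and each replicate pooled embryos, with their sexes balanced. There were 16 libraries: 2 of shCtrl with vehicle, 3 of shCtrl with TTX, 2 of shCtrl with BIC and 3 in each of the 3 shRai1 groups. The design calls the replicates biological. The files analysed here hold comparisons and pooled levels over them rather than values per library. The errors printed are therefore the standard errors (SE) of the deposited fit, and depth per library is unknown.

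Of 5 activity-regulated genes (Npas4, Fos, Arc, Bdnf, Nr4a1), the authors' deposited tables called 5 lower under TTX in each arm, and under BIC 2 higher in shCtrl (Arc, Bdnf) and 4 higher in shRai1. Nr4a1 under BIC in shCtrl lay below 0, at -0.14 (SE 0.27, adjusted p = 0.748) per the authors' deposited table. The targeted gene gave no check of the shRNA labels. In the authors' deposited tables, Npas4, an activity-induced transcription factor gene, had log2 changes of -3.92 in shCtrl and -3.24 in shRai1 under TTX. Under BIC it had 0.54 in shCtrl (SE 0.26, adjusted p = 0.0907) and 1.44 in shRai1 (SE 0.21, adjusted p = 1.33e-10), per the authors' deposited tables. Nascent Rai1 had, in the authors' deposited tables, a log2 change of 0.16 (SE 0.073, adjusted p = 0.357) in shRai1 against shCtrl with vehicle, -0.12 with TTX and 0.03 with BIC. The direction of every knockdown result below rests on the labels. In vehicle-treated shCtrl the pooled FPKM (fragments scaled to gene length and library size) summed to 493 over 8 neuron markers, 195 over 6 astrocyte markers, 131 over 6 oligodendrocyte precursor markers, 21.6 over 6 microglia markers and 0.628 over 3 endothelial markers, and 0 of these markers were at 0. In such bulk cultures, fewer cells of a type and less RNA per cell cannot be told apart.

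The promoter sequences of 3 members are shown because these genes gave opposed responses to the drugs: Syt9 and Syt10 fell under TTX, and Syt3 rose under TTX and fell under BIC. RefSeq windows on GRCm38.p6, the C57BL/6J reference, from 250 bases before to 50 bases after an annotated start, matched 6 of the 10 members with 9 windows in all. Each is written 5′ to 3′ on the strand of the gene, with Syt9 at chr7:107370540-107370839 (plus strand), Syt10 at chr15:89841811-89842110 (minus strand) and Syt3 at chr7:44383876-44384175 (plus strand). Capitals mark the letters TGACG, the half-site of the cyclic AMP response element (CRE), in the window of Syt10.
Syt9: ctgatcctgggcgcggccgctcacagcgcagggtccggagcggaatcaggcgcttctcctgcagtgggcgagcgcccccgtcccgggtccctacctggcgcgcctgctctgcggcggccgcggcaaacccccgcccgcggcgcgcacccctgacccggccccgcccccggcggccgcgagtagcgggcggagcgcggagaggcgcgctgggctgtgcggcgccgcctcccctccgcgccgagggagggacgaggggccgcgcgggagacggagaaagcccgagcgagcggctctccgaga
Syt10: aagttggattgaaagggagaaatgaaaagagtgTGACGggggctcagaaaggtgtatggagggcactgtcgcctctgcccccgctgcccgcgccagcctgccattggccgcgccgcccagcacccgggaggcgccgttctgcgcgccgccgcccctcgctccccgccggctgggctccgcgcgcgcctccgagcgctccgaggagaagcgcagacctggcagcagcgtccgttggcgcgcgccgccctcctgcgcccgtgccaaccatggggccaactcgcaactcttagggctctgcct
Syt3: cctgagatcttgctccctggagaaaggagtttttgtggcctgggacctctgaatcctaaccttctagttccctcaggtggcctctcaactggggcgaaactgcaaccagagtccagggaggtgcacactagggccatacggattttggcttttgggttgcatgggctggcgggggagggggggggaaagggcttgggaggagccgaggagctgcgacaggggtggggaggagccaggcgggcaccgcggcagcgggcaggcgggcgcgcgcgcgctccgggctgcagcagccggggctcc

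Both strands of the 9 windows were read for the full CRE TGACGTCA, the AP-1 site TGANTCA, the EGR site GCGTGGGCG, the E-box CACGTG and the CRE half-site TGACG, which lies within the full CRE. Syt4, which also gave opposed responses to the drugs, had no window and was not read, nor were Syt5, Syt7 and Syt12. The half-site occurred at position -217 from the start of Syt10 and in none of the other 8 windows, and 20.8% of all 32851 windows hold it. The E-box, held by 7.15% of all windows, occurred at 1 site of Syt6 that 2 of its 3 windows share, since these overlap. The AP-1 site, held by 7.81%, occurred in the other window of Syt6. The full CRE (1.79% of all windows) and the EGR site (0.612%) matched in none of the 9. The G and C content was 79.3% in the window of Syt9, 70.7% in that of Syt10 and 66.3% in that of Syt3.

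The members spanned a wide range of nascent levels in vehicle-treated shCtrl, with Syt11 at the top. Levels are compared between genes as FPKM, which is per length, from the authors' pooled value and its bounds in the file. Syt11, whose protein lacks calcium binding and acts in membrane retrieval, stood at 88.5 FPKM (bounds 68.4 to 109), and Syt1, the calcium sensor of fast synchronous release, at 71.4 (54.6 to 88.2). Below them came Syt12 at 27.6, Syt4 at 25.7, Syt5 at 24.5, Syt7 at 16.6, Syt6 at 15.5, Syt3 at 5.98, Syt9 at 2.86 and Syt10 at 1.33 FPKM. The bounds of neighbours in this order overlapped in 7 of the 9 pairs and were apart between Syt1 and Syt12 and between Syt6 and Syt3. The members were also ranked by the rebuilt vehicle count per kilobase of the listed interval, an order chosen after seeing the data. In that order 8 members changed rank, while Syt11 and Syt10 kept the top and bottom ranks. Syt12 moved from rank 3 to 9, Syt1 from 2 to 4, Syt4 from 4 to 2 and Syt5 from 5 to 3. Syt7 moved from rank 6 to 5, Syt6 from 7 to 6, Syt3 from 8 to 7 and Syt9 from 9 to 8. The listed interval of Syt12 is shared with A930001C03Rik and Rhod, and that of Syt1 with Gm5136.

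**Figure D1:**
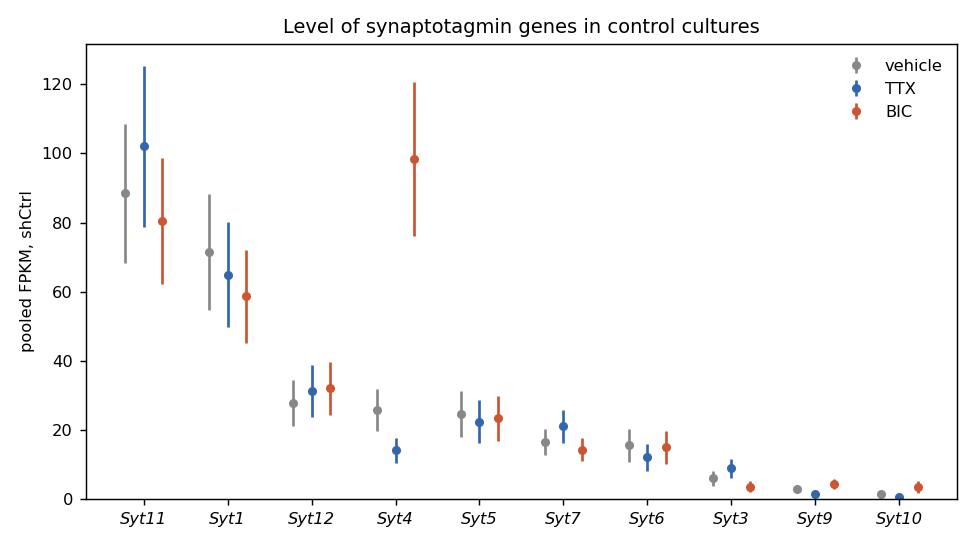
Pooled FPKM of the 10 synaptotagmins in the 3 shCtrl conditions, on a linear axis, with the bounds given in the authors' file as bars. Syt11 and Syt1 lie highest and Syt10 lowest with vehicle, and Syt4 moves from 25.7 with vehicle to 98.4 with BIC.

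Under each drug some members rose and others fell. The authors' deposited table for TTX in shCtrl called 3 of 10 higher (Syt3, Syt11, Syt12) and 3 lower (Syt4, Syt9, Syt10), a call being an adjusted p under 0.05. Of all genes with an adjusted p there, 26.7% were called, 11.8% higher and 14.9% lower. Under BIC in shCtrl, 3 were called higher (Syt4, Syt9, Syt10) and 2 lower (Syt3, Syt11) in the authors' deposited table, with 34.4% of all genes called, 17.4% higher and 17.0% lower. Among genes averaging 50 or more normalized counts, as all members do, the share called was 32.1% for TTX (13.8% higher, 18.2% lower) and 43.6% for BIC (21.5% higher, 22.1% lower). The 5 of 10 members called under BIC were thus close to the share of all such genes, and the median log2 change of the members was -0.04 under TTX and 0.05 under BIC, beside 0.00 and -0.02 for all tested genes. In shRai1 under TTX, the authors' deposited table called 1 of 10 higher and 4 lower, with 30.5% of all genes called (13.7% higher, 16.8% lower) and 36.2% of those with 50 or more counts. In shRai1 under BIC, the authors' deposited table called 2 higher and 2 lower, with 42.5% of all genes called (21.3% higher, 21.3% lower) and 55.7% of those with 50 or more counts. Averaged over the arms, 33.1% of 18241 genes were called for TTX and 46.0% for BIC, beside 6 and 5 of the 10 members, and among those with 50 or more counts 45.5% and 61.8%.

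**Figure D2:**
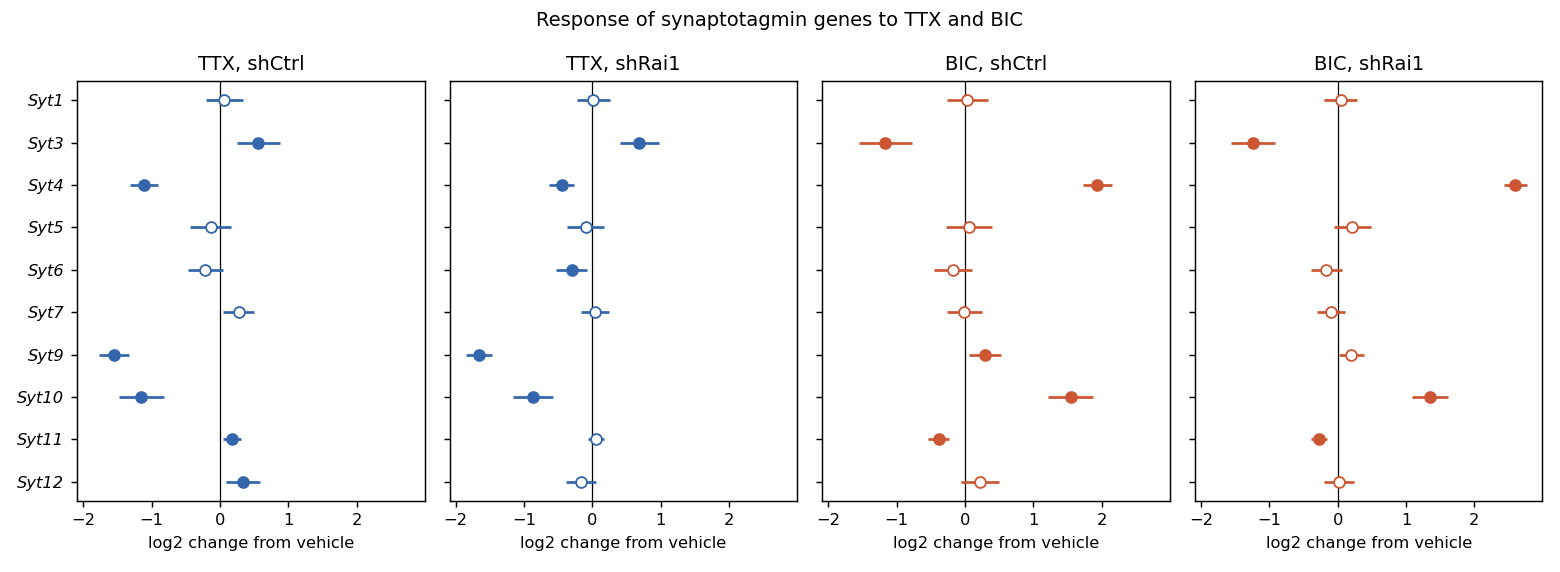
Log2 change of each synaptotagmin under TTX and BIC in shCtrl and shRai1, with 95% intervals from the deposited standard errors, filled symbols marking an adjusted p under 0.05. Syt4, Syt9 and Syt10 lie below 0 under TTX and above 0 under BIC in both arms, and Syt3 lies on the opposite side each time.

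Of the members that bind little or no calcium, Syt4 moved furthest. Syt4, an activity-induced gene whose protein resides on dense-core vesicles and in dendrites, lies on chromosome 18 at 31597462 to 31607069 (mm9, the build of all intervals below and not that of the promoter windows). Its mean normalized count per condition, rebuilt here from the gene's deposited mean and log2 changes and so without an error of its own, was 738 with vehicle, 342 with TTX and 2824 with BIC in shCtrl, and 492, 360 and 2979 in shRai1. TTX and BIC thus bracketed vehicle in both arms, and the vehicle level was lower in shRai1. In the authors' deposited tables, Syt4 fell 2.15-fold under TTX in shCtrl (log2 change -1.11, SE 0.10, adjusted p = 1.73e-24) and 1.37-fold in shRai1 (-0.45, SE 0.093, adjusted p = 1.41e-05). Under BIC it rose 3.83-fold in shCtrl (1.94, SE 0.11, adjusted p = 7.20e-72) and 6.05-fold in shRai1 (2.60, SE 0.085, adjusted p = 2.06e-201), again in the authors' deposited tables. Its rise ranked 102 of 16692 genes from the top in shCtrl and 45 of 17510 in shRai1.

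Syt11 and Syt12 had smaller changes. Syt11 (chromosome 3, 88548623 to 88576521) stood at rebuilt counts of 3140 with vehicle, 3551 with TTX and 2400 with BIC in shCtrl and at 3294, 3431 and 2718 in shRai1, so its lowest level was with BIC in both arms. In the authors' deposited tables its log2 change under BIC was -0.39 (SE 0.077, adjusted p = 4.51e-06) in shCtrl and -0.28 (SE 0.060, adjusted p = 2.13e-05) in shRai1, and under TTX 0.18 (SE 0.068, adjusted p = 0.0369) and 0.06 (SE 0.060, adjusted p = 0.509). From pooled FPKM the change of Syt11 under BIC in shCtrl was -0.14 with either pseudocount (0.1 or 1). Syt12 (chromosome 19, 4425457 to 4477143), whose protein also lacks calcium binding and is a target of protein kinase A on synaptic vesicles, stood at 358, 452 and 416 in shCtrl and at 423, 376 and 430 in shRai1, with TTX above vehicle in one arm and below it in the other. It was called in 1 of the 4 drug comparisons of the authors' deposited tables, TTX in shCtrl, at 0.33 on the log2 scale (SE 0.13, adjusted p = 0.0332), and from pooled FPKM it was 0.18 with either pseudocount.

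The fast sensors of release differed from each other. Syt1 (chromosome 10, 107934706 to 108448031) stood at rebuilt counts of 20700, 21661 and 21201 with vehicle, TTX and BIC in shCtrl and at 19526, 19730 and 20123 in shRai1, a narrow range. Its log2 change in the authors' deposited tables was 0.07 (95% interval -0.20 to 0.33) under TTX and 0.03 (-0.26 to 0.33) under BIC in shCtrl. Syt9 (chromosome 7, 114514304 to 114692169), which serves as a fast sensor in limbic and striatal neurons, stood at 1247, 426 and 1521 in shCtrl and at 1270, 401 and 1459 in shRai1, with TTX far below the other conditions. It fell 2.93-fold under TTX in shCtrl (log2 change -1.55, SE 0.11, adjusted p = 1.52e-41) and 3.17-fold in shRai1 (-1.66, SE 0.099, adjusted p = 7.81e-61), per the authors' deposited tables, rank 106 and rank 61 from the bottom of 15464 genes. Its change under BIC was small in the authors' deposited tables, 0.29 (SE 0.12, adjusted p = 0.0444) in shCtrl and 0.20 (SE 0.093, adjusted p = 0.0703) in shRai1, and averaged over the arms it was 0.24 (SE 0.075, adjusted p = 0.00334). From pooled FPKM the changes of Syt9 in shCtrl were -1.07 or -0.74 under TTX and 0.57 or 0.46 under BIC, with a pseudocount of 0.1 or 1. The call under BIC in shCtrl is lost when p-values are adjusted over all named genes (adjusted p = 0.0533).

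**Figure D3:**
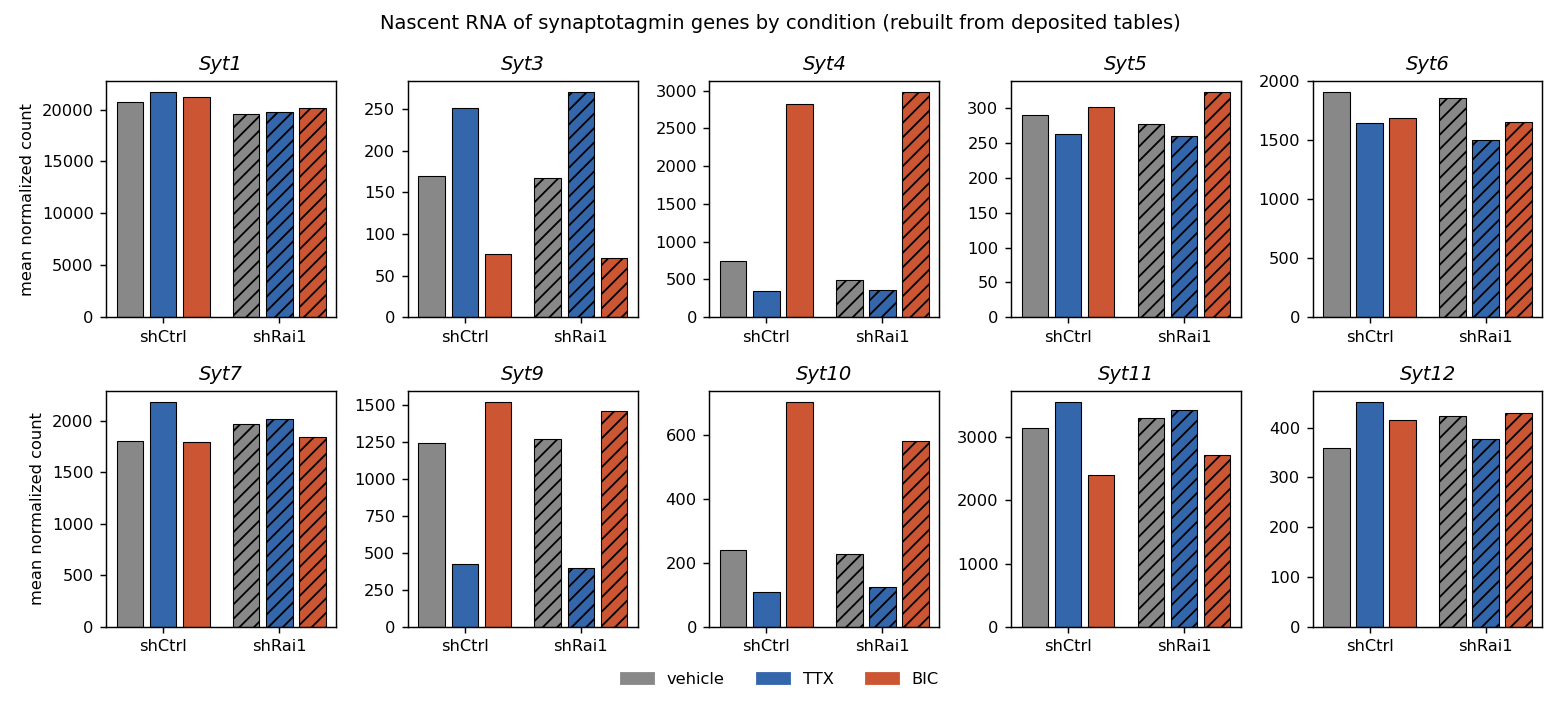
Rebuilt mean normalized count of each synaptotagmin in the 6 conditions, 1 panel per gene with a linear axis from 0; plain bars are shCtrl, hatched bars shRai1, grey vehicle, blue TTX and orange BIC. Syt4 shows a lower vehicle bar in shRai1 (492) than in shCtrl (738) and BIC bars of 2979 and 2824.

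Syt3, Syt6 and Syt10 share cysteines near the N terminus through which the proteins form disulfide-linked dimers, and their transcripts responded differently. Syt10 (chromosome 15, 89612824 to 89672291), known for the release of IGF-1 from olfactory bulb neurons, stood at rebuilt counts of 241, 109 and 704 with vehicle, TTX and BIC in shCtrl and at 228, 125 and 581 in shRai1, the same order in both arms. In the authors' deposited tables it fell 2.22-fold under TTX in shCtrl (log2 change -1.15, SE 0.17, adjusted p = 1.86e-10) and 1.83-fold in shRai1 (-0.87, SE 0.15, adjusted p = 8.03e-08), and under BIC it rose 2.92-fold (1.55, SE 0.17, adjusted p = 7.40e-19) and 2.55-fold (1.35, SE 0.14, adjusted p = 7.41e-22). From pooled FPKM, where Syt10 is low, the changes in shCtrl were -1.37 or -0.68 under TTX and 1.27 or 0.90 under BIC, with a pseudocount of 0.1 or 1.

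Syt3 went the other way. Syt3 (chromosome 7, 51639496 to 51655400), a high-affinity plasma membrane member known for the internalisation of AMPA receptors, stood at 170, 251 and 75.8 in shCtrl and at 168, 270 and 71.2 in shRai1, highest with TTX and lowest with BIC in each arm. Its log2 change in the authors' deposited tables was 0.56 (SE 0.16, adjusted p = 0.00325) and 0.69 (SE 0.14, adjusted p = 1.43e-05) under TTX in shCtrl and shRai1, and -1.17 (SE 0.20, adjusted p = 4.36e-08) and -1.24 (SE 0.16, adjusted p = 6.57e-13) under BIC, a 2.24-fold and a 2.36-fold fall. From pooled FPKM the change of Syt3 under BIC in shCtrl was smaller, -0.72 with a pseudocount of 0.1 and -0.61 with 1. Syt6 (chromosome 3, 103379205 to 103449490), best known from the sperm acrosome, stood between 1505 and 1908 in the 6 conditions. Per the authors' deposited tables, its log2 change under TTX was -0.21 (SE 0.13, adjusted p = 0.242) in shCtrl and -0.30 (SE 0.11, adjusted p = 0.0311) in shRai1. The average over the arms was -0.26 (SE 0.086, adjusted p = 0.0112).

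Syt5 and Syt7 were called in none of the 4 drug comparisons. Syt7 (chromosome 19, 10463580 to 10527671), the slow high-affinity sensor of asynchronous release and facilitation, stood between 1793 and 2184, with a log2 change of 0.27 (SE 0.12, adjusted p = 0.0677) under TTX in shCtrl and 0.04 (SE 0.10, adjusted p = 0.827) in shRai1 in the authors' deposited tables. Syt5 (chromosome 7, 4491367 to 4498169), a dense-core vesicle member, stood between 260 and 323, and its largest log2 change in the authors' deposited tables was 0.22 (95% interval -0.05 to 0.49) under BIC in shRai1.

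Set against each other, the drugs separated the same 5 members in each arm. BIC minus TTX was computed with a standard error that is an upper bound, because both drugs share their vehicle libraries, and 32.4% of 18241 genes were called in shCtrl and 39.5% in shRai1. Among those with 50 or more counts the shares were 45.6% and 54.9%, so 5 of 10 was close to the background. Syt4 was 8.25-fold higher with BIC than with TTX in shCtrl (log2 difference 3.04, SE 0.15, adjusted p = 1.73e-90) and 8.28-fold in shRai1 (3.05, SE 0.13, adjusted p = 1.00e-125). The difference was 2.70 and 2.22 for Syt10, 1.84 and 1.86 for Syt9, -1.73 and -1.92 for Syt3, and -0.57 and -0.34 for Syt11, in shCtrl and shRai1.

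Between the arms, Syt4 was called with vehicle and no other member in any treatment. With vehicle, Syt4 was 1.50-fold lower in shRai1 than in shCtrl in the authors' deposited table (log2 change -0.58, SE 0.10, 95% interval -0.78 to -0.39, adjusted p = 1.40e-05), where 0.857% of genes were called, 0.730% lower. With TTX its change was 0.07 (95% interval -0.12 to 0.26, adjusted p = 1.00) and with BIC 0.08 (-0.10 to 0.25, adjusted p = 1.00), per the authors' deposited tables. In the authors' deposited tables, 0 of 10 members were called with TTX, where 0.0283% of genes were, and 0 of 10 with BIC, where 0.00944% were. At an unadjusted p under 0.05, passed by 3.30% of all genes with TTX and 2.93% with BIC, 1 member stood in each: Syt12 with TTX (-0.26) and Syt11 with BIC (0.18), both with an adjusted p of 1.00 in DESeq2's Wald test per the authors' deposited tables. The other members with vehicle ranged from -0.08 for Syt1 and Syt10 to 0.24 for Syt12 (adjusted p = 0.474), per the authors' deposited table.

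The responses of Syt4 themselves differed between the arms, and the 5 activity-regulated genes had median interactions of the same sign. The interaction, the log2 response in shRai1 less the one in shCtrl, was 0.66 for TTX (SE 0.14, 95% interval 0.38 to 0.93, adjusted p = 0.00174) and 0.66 for BIC (SE 0.14, 0.40 to 0.93, adjusted p = 0.0155). These tests called 0.943% of 18241 genes for TTX, with 0.587% of the 18241 higher in shRai1, and 0.0219% for BIC, which is 4 genes. Both interactions contain the same vehicle libraries, 2 of shCtrl and 3 of shRai1, and so are not separate evidence. No other member was called: the next was Syt12 for TTX, at -0.50 (SE 0.17, adjusted p = 0.147). Averaged over the 3 treatments, 0 of 10 members were called for the shRNA by the same Wald test, with 0.00548% of genes called. The 1 member with an unadjusted p under 0.05, as 4.12% of all genes had, was Syt4, at -0.15 (SE 0.055, adjusted p = 1.00).

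**Figure D4:**
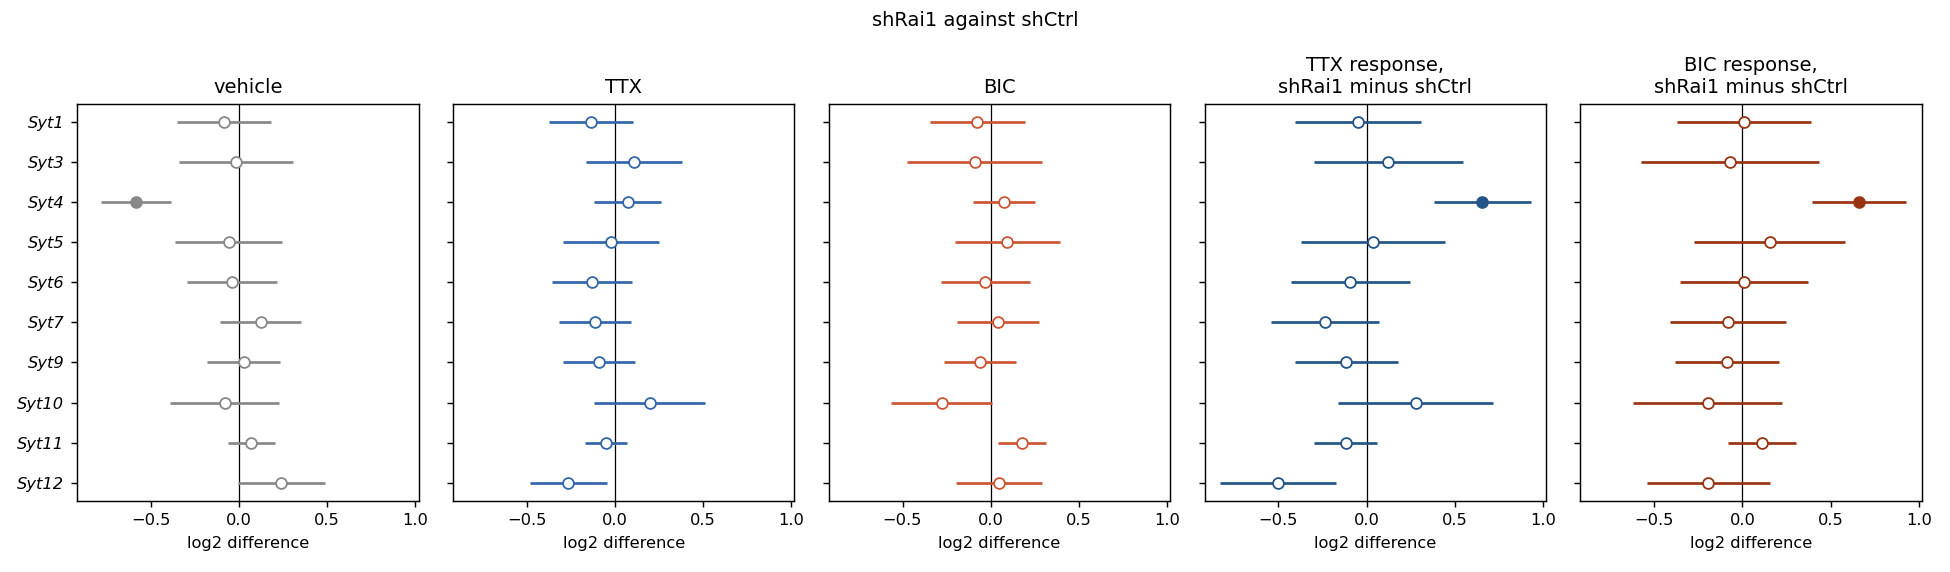
Log2 change of each synaptotagmin in shRai1 against shCtrl with vehicle, TTX and BIC, and the interaction for each drug, with 95% intervals; filled symbols mark an adjusted p under 0.05. The filled symbols belong to Syt4, at -0.58 with vehicle and at 0.66 in both interactions.

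The values of activity-regulated genes and cell markers in the same contrasts follow, and their part in the Syt4 result was not tested. The 5 activity-regulated genes had a median log2 change in shRai1 against shCtrl of -0.55 with vehicle, with 5 of 5 below 0, 0 called and 4 at an unadjusted p under 0.05 by DESeq2's Wald test in the authors' deposited table, where 11.1% of all genes were. With TTX the median was 0.04 and with BIC 0.15, with 0 called and 0 at an unadjusted p under 0.05 in each, per the authors' deposited tables. Their median interaction was 0.53 for TTX and 0.63 for BIC, with 5 of 5 above 0 in each, beside the 0.66 of Syt4 for each drug. By the Wald test computed here 0 of the 5 were called in either interaction, and 3 for TTX and 2 for BIC had an unadjusted p under 0.05, beside 9.05% and 3.03% of all genes. The 6 oligodendrocyte precursor markers had a median log2 change in shRai1 against shCtrl of -0.84 with vehicle (6 of 6 below 0, 4 called lower), 0.50 with TTX (6 of 6 above 0, 1 called higher) and -0.45 with BIC (6 of 6 below 0, 1 called lower), per the authors' deposited tables. Their median interaction was 1.37 for TTX, with 6 of 6 called higher, and 0.48 for BIC, with 0 called and 6 of 6 above 0. Of all genes, 0.857% were called for the shRNA with vehicle, 0.0283% with TTX and 0.00944% with BIC. The interactions called 0.943% of genes for TTX and 0.0219% for BIC. The 8 neuron markers had a median of -0.17 with vehicle in the authors' deposited table, with 1 called higher and 7 of 8 below 0. By DESeq2's Wald test 4 of these 8 had an unadjusted p under 0.05 there, beside 11.1% of all genes. The neuron medians were -0.10 with TTX (7 of 8 below 0) and 0.01 with BIC, with 0 called in each, per the authors' deposited tables. The median interaction of the neuron markers was 0.01 for TTX (1 called lower) and 0.08 for BIC (0 called). By the Wald test computed here 2 neuron markers had an unadjusted p under 0.05 in each interaction. The 6 astrocyte markers had a median of -0.21 with vehicle, with 6 of 6 below 0, 0 called and 3 at an unadjusted p under 0.05 by DESeq2's Wald test, and medians of -0.07 with TTX and -0.11 with BIC, per the authors' deposited tables. Their median interaction was 0.13 for each drug, with 5 of 6 above 0. In shCtrl the neuron markers had medians of -0.22 under TTX (1 called higher, 4 lower) and 0.69 under BIC (5 called higher, 3 lower), per the authors' deposited tables. The oligodendrocyte precursor markers had -0.73 (4 called lower) and -0.25 (1 called lower), and the astrocyte markers -0.20 (6 of 6 below 0, 3 called lower) and -0.10 (1 called lower), per the authors' deposited tables. The microglia markers had -0.04 under TTX and 0.37 under BIC (5 of 6 above 0, 2 called higher of the 3 with an adjusted p), per the authors' deposited tables. In shRai1 the oligodendrocyte precursor markers lay on the other side of 0, at 0.78 under TTX (6 of 6 above 0, 5 called higher) and 0.15 under BIC (5 of 6 above 0, 0 called), per the authors' deposited tables. In the same arm the neuron markers had -0.08 (3 called lower) and 0.77 (5 called higher, 3 lower), the astrocyte markers -0.14 (1 called higher, 1 lower) and 0.03 (1 called higher), and the microglia markers 0.14 (0 called) and 0.46 (1 called higher), per the authors' deposited tables. Of all genes with an adjusted p, 26.7% were called under TTX and 34.4% under BIC in shCtrl, and 30.5% and 42.5% in shRai1. Among those with 50 or more counts the shares were 32.1% and 43.6% in shCtrl, and 36.2% and 55.7% in shRai1. The part of the cell markers in the drug responses of the members was not tested.

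The genes with the profile over the 6 conditions most like that of Syt4 were Otud1, Sstr1 and Cab39l. Likeness was the Euclidean distance between profiles of log2 values over 6 conditions, each centred on its own mean, among 16036 genes with a mean FPKM of at least 0.5, and the points share libraries. The distance was 0.315 for Otud1, a deubiquitinase gene, 0.331 for Sstr1, a somatostatin receptor gene, and 0.332 for Cab39l, beside a median of 3.22 over all these genes. Relative to vehicle-treated shCtrl, the rebuilt log2 level with vehicle in shRai1 was -0.33 for Otud1, -0.56 for Sstr1 and -0.25 for Cab39l. That condition was among the 6 used to choose these genes, so their sign there is a description.

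Of the 7 other synaptotagmin genes in the tables, Syt2 and Syt17 were called higher under TTX and lower under BIC, as Syt3 was. The authors' deposited tables list 3 called higher under TTX in shCtrl (Syt2, Syt13, Syt17) and 0 lower, and 0 called higher and 4 lower under BIC in shCtrl (Syt2, Syt14, Syt16, Syt17), where 26.7% and 34.4% of all genes were called. In shRai1 the authors' deposited tables list 3 called higher and 1 lower (Syt16) under TTX, and 1 higher (Syt13) and 4 lower under BIC, where 30.5% and 42.5% of all genes were called. Syt17 had log2 changes of 0.58 (SE 0.12, adjusted p = 2.35e-05) under TTX and -1.28 (SE 0.15, adjusted p = 1.14e-16) under BIC in shCtrl, and Syt16 had -0.97 (SE 0.10, adjusted p = 4.80e-19) under BIC, in the authors' deposited tables. Syt2, the fast sensor of hindbrain and spinal synapses, had 0.78 (SE 0.17, adjusted p = 3.92e-05) under TTX and -0.70 (SE 0.20, adjusted p = 0.00213) under BIC in the authors' deposited tables. Syt8 had a mean normalized count of 0.313 and no adjusted p in the drug comparisons of the authors' deposited tables. In the 3 knockdown comparisons of the authors' deposited tables, by DESeq2's Wald test, 0 of the 7 were called, and 0 with vehicle, 0 with TTX and 1 with BIC had an unadjusted p under 0.05, beside 11.1%, 3.30% and 2.93% of all genes.

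The release machinery on which synaptotagmins act held genes called in each direction. Of 32 genes for SNARE proteins, priming factors, complexins, other C2 proteins and vesicle proteins, 1 was called higher and 11 lower under TTX in shCtrl, and 8 higher and 8 lower under BIC, in the authors' deposited tables, with median log2 changes of -0.11 and -0.07. Among all genes with 50 or more counts, 13.8% were called higher and 18.2% lower under TTX, and 21.5% higher and 22.1% lower under BIC. Of 11 priming genes, 0 were called higher and 5 lower under TTX, and 4 higher and 1 lower under BIC, in the authors' deposited tables, to be read against the same shares. Unc13a and Rims1, active zone genes for vesicle priming, had log2 changes of -0.73 (SE 0.085, adjusted p = 5.63e-16) and -0.81 (SE 0.11, adjusted p = 3.16e-11) under TTX, and Unc13b had -0.52 (SE 0.090, adjusted p = 1.76e-07), per the authors' deposited tables. Syn3, a synapsin gene, had 0.74 (SE 0.097, adjusted p = 5.20e-13) under TTX and -0.83 (SE 0.11, adjusted p = 7.69e-13) under BIC in the authors' deposited tables, the order seen for Syt3. Sv2c, which encodes a vesicle glycoprotein and partner of synaptotagmin, had 1.48 (SE 0.13, adjusted p = 5.21e-29) under BIC in the authors' deposited table. In the 3 knockdown comparisons 0 of the 32 were called by DESeq2's Wald test in the authors' deposited tables, and 2 with vehicle, 5 with TTX and 0 with BIC had an unadjusted p under 0.05, beside 11.1%, 3.30% and 2.93% of all genes.

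**Figure D5:**
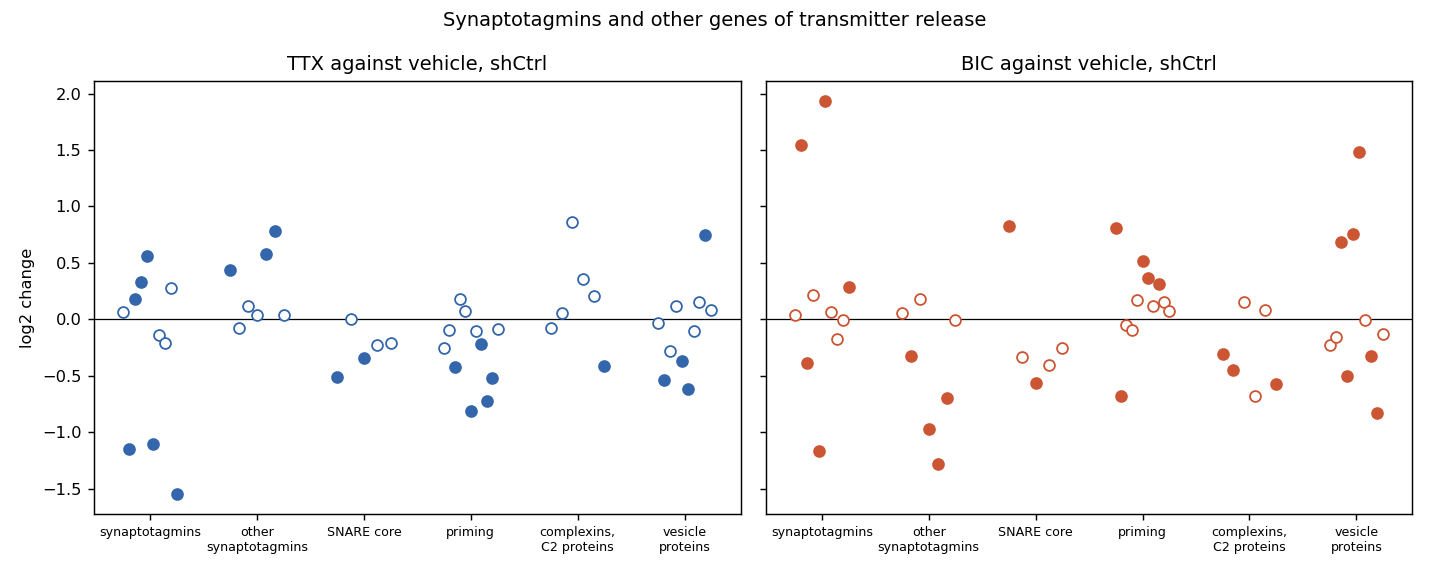
Log2 change under TTX and BIC in shCtrl of the 10 synaptotagmins, the other synaptotagmins and the 4 groups of release genes, 1 point per gene, filled where the adjusted p is under 0.05. The 10 synaptotagmins reach from -1.55 to 0.56 under TTX and from -1.17 to 1.94 under BIC.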

How the data were processed

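Bru-seq libraries from 16 cultures in 6 groups were used, and the 12 ChIP samples were not analysed here. The submitters' processing notes name TopHat2 2.1.0, Bowtie2 2.2.6, DESeq2 and mm9, and starts are given 1-based.

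Each of the 7 comparison tables holds, per the file headers, a mean normalized count (a signal that the authors averaged over libraries), a log2 change with its SE, a Wald score and p-values before and after adjustment, from 1 fit of the authors. The log2 changes close across the tables to within 1e-09, and those of genes with a mean count under 1 were at most 0.794 in size; whether the deposited changes were shrunk toward 0, those of the members included, was not tested. The knockdown table for vehicle has no gene names, and 20107 of its genes were named here by their unique mean count. Per the file headers, the deposited FPKM table gives each condition 1 pooled value and its bounds. FPKM columns of shRai1 entered only a mean over 6 conditions, because their names did not follow the tables (Pearson r across 12333 genes, which are not independent replicates, between the FPKM ratio named TTX over vehicle and the TTX table was -0.64, and 0.77 with the BIC table).

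Interactions, averages and BIC minus TTX were computed here from the deposited changes, with two-sided Wald tests and Benjamini-Hochberg adjustment over 18241 named genes with a mean FPKM of at least 0.1 (Python 3.11.15, pandas 2.3.3, scipy 1.17.1). The arithmetic of the interactions and averages was tested on simulated data, and that of BIC minus TTX was not. Whether the deposited changes combined here are independent was not tested. All 10 members were reported in every comparison. Of the other synaptotagmins and the release genes, the 4 with the smallest adjusted p per drug in shCtrl were named, and Syt2 under both drugs, Syt17 under TTX and the other genes named beside counts were added after their values were seen. The plan assumed per-library tests where counts existed, and the files used here hold summaries. The members, lists and tests were chosen with earlier results of these data known, and the CRE half-site was added after seeing the data. Alternatives tried were the gene set of the adjustment, the thresholds 0.01 and 0.1, centring on the median gene, a count minimum of 50 and FPKM ratios with pseudocounts of 0.1 and 1.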

Additional observations from a re-analysis of the deposited data

Results flagged for a closer look

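The response of Syt4 differed between the arms for each drug by a test of the difference itself. The log2 response in shRai1 less the one in shCtrl was 0.66 for TTX (SE 0.14, adjusted p = 0.00174) and 0.66 for BIC (SE 0.14, adjusted p = 0.0155), by the Wald test adjusted over 18241 genes. Over the alternative settings the adjusted p ranged from 0.00118 to 0.00192 for TTX and from 0.0105 to 0.0228 for BIC. Both values contain the same vehicle libraries, and the change in shRai1 against shCtrl was -0.58 with vehicle, 0.07 with TTX and 0.08 with BIC in the authors' deposited tables. How many replicates show the direction could not be counted, since no values per library were used. The 5 activity-regulated genes had median interactions of 0.53 for TTX and 0.63 for BIC, with 5 of 5 above 0 in each and 0 called; their part in the Syt4 values was not tested.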

How the results depend on the processing

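No paired analysis was possible because the tables used here hold comparisons and pooled levels, with no value per library. For the same reason leaving out each replicate and a fit with another tool were not run, so whether 1 library decides the vehicle level of Syt4 was not tested. Of 140 results (10 members in 14 comparisons), 139 kept their direction and their side of the threshold with p-values adjusted over all named genes, 140 with adjustment over genes with a count of at least 50, and 135 with changes centred on the median gene, which shifted by at most 0.044. Centring reversed 4 values, none of them called before or after: Syt7 under BIC in shCtrl (0.0336), the BIC interactions of Syt1 (-0.00161) and Syt6 (-0.000721), and the averaged knockdown of Syt3 (0.00489). It also brought Syt9 under BIC in shRai1 past the threshold (adjusted p = 0.0312). At a threshold of 0.01 the members called in the BIC interaction fell from 1 to 0, and 7 single results were no longer called; at 0.1, 2 more were. Ratios of pooled FPKM kept the direction of all 11 calls in shCtrl with either pseudocount, while 12 of 20 values moved by more than 1 SE; called values that moved by over 1.5 times stand beside their results. Of the values not called, Syt1 changed sign, to -0.14 under TTX and -0.28 under BIC, and so did Syt5 under BIC, to -0.07. With 2 libraries in the vehicle and BIC groups of shCtrl, small changes such as those of Syt5, Syt6 and Syt7 may have gone undetected.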
